A study of Mus musculus with 6 samples.

Results

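Replication-dependent histone genes were taken as every array probe whose platform gene symbol is H1f1 to H1f6 or is H2ac, H2bc, H3c or H4c followed by a number, the newer names of the Hist1h and Hist2h genes. The rule found 85 of 45281 probes, for 56 of the 19057 genes that the platform names. In a RefSeq gene table of GRCm38.p6, 47 of these genes lie on chromosome 13 and 9 on chromosome 3, and 53 span at most 1000 bases. Transcript levels were measured on 6 Illumina bead arrays, 3 for each group of sorted Sertoli cells, which nurse the germ cells inside the seminiferous tubule. The Rb cKO mice (cKO) carried a floxed and a null allele of Rb1, the retinoblastoma gene, together with a Cre transgene driven by the Amh promoter. The Control mice carried the same floxed and null Rb1 alleles and no Cre, so the controls have a single working copy. All mice were of the strain C57B6J/129SvEv and 6 weeks old, and cells were sorted by fluorescence on a Sox9-GFP label. Cre is present on the cKO side alone, so its effect and that of the loss of Rb1 cannot be told apart. The labels do not say whether arrays came from separate animals, so each p-value reflects how far these arrays spread, and that spread may be technical.

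These genes encode the linker histone H1 and the core histones H2A, H2B, H3 and H4, which package newly made DNA, and their transcripts accumulate in S phase. Most of these mRNAs carry no poly(A) tail and end in a stem-loop that binds the protein SLBP, although in differentiated cells some of the genes also give polyadenylated transcripts. The labelling kit named by the labels primes on poly(A) tails, and which form of a transcript each probe measured was not determined here. The retinoblastoma protein holds back the E2F factors, which switch on genes of S phase, and Sertoli cells of the adult testis do not normally divide.

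The arrays had a median of 43 to 44 beads per probe and 43 to 53.5% of probes detected, meaning a detection score over 0.95, and the number of arrays limits the precision. The arrays of cKO replicate 1 and control replicate 3 stood apart, with scores of -113.9 and 110.2 on the leading principal component (58.9% of variance), while the other 4 scored between -34.3 and 31.4. For many of the histone probes in which either array stood farthest from the rest, the difference is also given without both. It is not given for every such probe. Levels are normalised log2 intensities, given for replicates 1 to 3 of a group in that order. The Rb1 probe ILMN_2679619 was at 8.24, 7.73 and 7.44 on cKO arrays and 9.10, 9.34 and 8.64 on control arrays, and ILMN_2861644 at 10.37, 9.92 and 9.36 on cKO arrays and 10.53, 11.08 and 10.98 on control arrays. Both were lower on every cKO array, by differences of -1.22 ± 0.32 and -0.98 ± 0.34 (cKO minus control, ± SE), which did not pass in limma (adjusted p = 0.399 and 0.668). Whether these probes lie in the deleted part was not determined. All 13 Sertoli cell markers on the array were tested, and 12 had negative differences, with a median of -0.39. Over all genes, by the brightest tested probe of each, 61.3% were positive and the median was 0.12. The mean level of the markers relative to the control mean was -0.99, -0.30 and -0.15 on cKO arrays and -0.09, 0.13 and -0.04 on control arrays. On cKO replicate 1 that mean included Trf at 4.57, where the control mean of Trf was 9.98. Germ cell RNA was present in both groups, with Prm1, a protamine of spermatids, at 14.86, 14.80 and 14.79 on cKO arrays and 14.90, 14.90 and 14.72 on control arrays.

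No histone probe passed an adjusted p of 0.05. Of the 85 probes, 67 (46 genes) were detected on at least 3 of the 6 arrays and entered the limma fit. In it 0 were called higher and 0 lower in cKO, against 0.142% of all 21805 tested probes called higher and 0% called lower, and the smallest adjusted p among the histone probes was 0.731. At an unadjusted p under 0.05, 2 histone probes were higher and 1 was lower, where 4.63% and 1.76% of all tested probes were. With the replicate number as a block these counts were 4 and 6, beside 9.06% and 5.88%, and 0 probes of the whole array were called in place of 31. The histone differences had a median of -0.03 and ran from -2.11 to 0.88, with 31 positive and 36 negative, beside a median of 0.08 and 57% positive over all tested probes. Without cKO replicate 1 the histone median was 0.15 with 44 positive, and without that array and control replicate 3 it was 0.11, also with 44 positive. Over all tested probes those medians were 0.05 and -0.03. In RNA from many cells, fewer cells that make a transcript and less of it per cell cannot be told apart.

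The S phase genes gave other values on the same arrays. By the brightest tested probe of each gene, all 27 tested genes of replication and nucleotide synthesis were above 0, the median being 1.12. Of them 21 had an unadjusted p under 0.05. Over 12277 genes by their brightest probe the median was 0.12, with 61.3% positive and, at that p, 5.96% higher and 1.81% lower. The less bright probes of Gins2 and Rpa2 had negative differences. Those of Mcm6, Ung, Lig1, Rrm1, Tyms, Tk1, Rfc4 and Rrm2 had positive ones. Cdt1, which licenses replication origins, passed, at 9.06, 8.92 and 8.67 on cKO arrays and 6.74, 6.95 and 6.47 on control arrays, a difference of 2.16 ± 0.27 (adjusted p = 0.0485), a call lost with the replicate block and without any one control array, where no probe passed. With 1 probe a gene, the 46 histone genes had a median of 0.05, with 24 positive and 22 negative, and for 7 of them every cKO array lay above every control array, beside 9.56% of all genes. The mean level of the S phase list relative to the control mean was 1.15, 1.18 and 1.06 on cKO arrays and 0.22, 0.08 and -0.30 on control arrays. That of the histone genes was -0.62, 0.04 and 0.15 on cKO arrays and -0.13, 0.03 and 0.10 on control arrays. The difference between these lists was not tested. Marker lists of other cells also had positive median differences, of 0.67 for spermatogonial, 1.43 for Leydig and 1.14 for leukocyte markers, and their part in the S phase values was not tested.

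**Figure D1:**
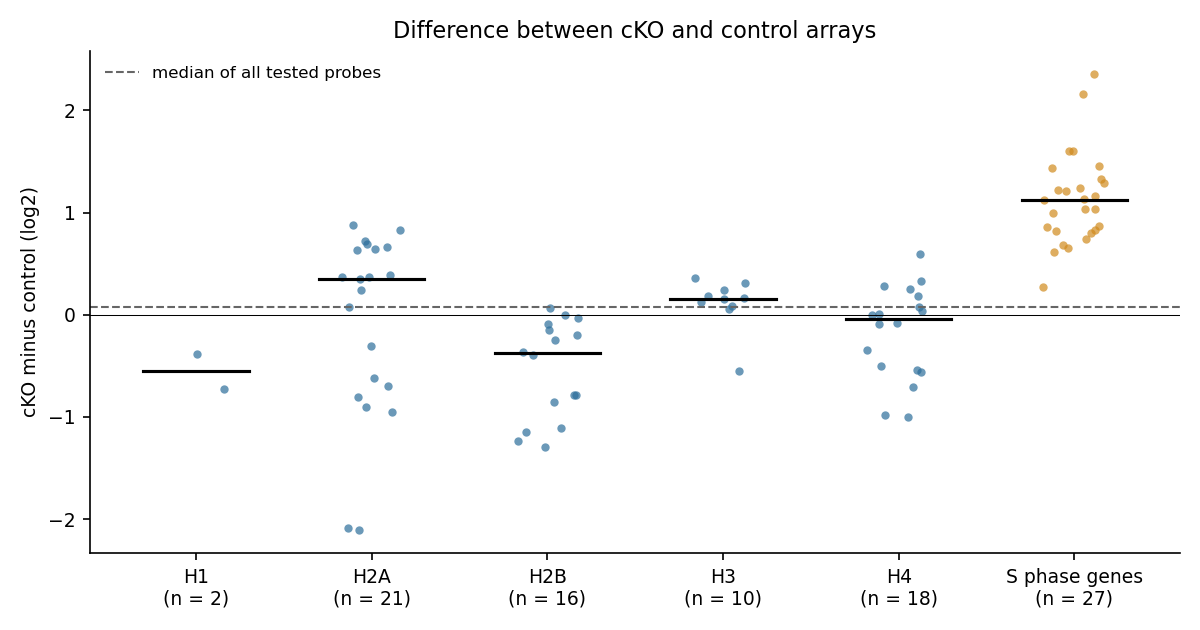
Difference between cKO and control arrays (log2 units, vertical axis) for each tested probe of the 5 histone classes and, by 1 probe a gene, for 27 S phase genes. Black bars are medians and the dashed line is the median of all tested probes (0.08). The histone points lie between -2.11 and 0.88, and all S phase points lie above 0.

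Detection differed between the classes. Of the linker histone probes 2 of 7 were tested, both of H1f2, and the probes of H1f1, H1f3, H1f4, H1f5 and H1f6 were detected on 0 of 6 arrays. Of the H2A probes 21 of 23 were tested, of H2B 16 of 18, of H3 10 of 18 and of H4 18 of 19, where 48.2% of all probes on the array were. In all, 11 histone probes were detected on no array, and 7 of the 18 that were not tested were detected at least once. The 10 genes without a tested probe were the 5 named H1 genes, H2ac4, H2ac6, H2bc3, H2bc18 and H3c3. H2bc18, an H2B gene of chromosome 3, was at 4.30, 4.36 and 4.40 on cKO arrays and 4.50, 4.45 and 6.80 on control arrays. It was detected on 1 array, and control replicate 3 was far above the rest.

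H1f2 (Hist1h1c), a linker histone that binds the DNA between nucleosomes, had negative differences with both probes. Probe ILMN_2855315 was at 10.40, 11.13 and 10.82 on cKO arrays and 11.14, 11.65 and 11.75 on control arrays. All cKO values lay under all control values, and cKO replicate 1 was lowest. The difference was -0.73 ± 0.31, with an unadjusted p of 0.0496 and an adjusted p of 0.766 in limma. Probe ILMN_2774537 was at 11.48, 11.56 and 10.67 on cKO arrays and 11.38, 11.69 and 11.78 on control arrays, where the groups overlapped and cKO replicate 3 was lowest, with a difference of -0.38 ± 0.32. Without cKO replicate 1 and control replicate 3 both differences were -0.42. The H1f2 promoter is shown because it belongs to the single linker histone gene that was tested. Promoter windows here run from 250 bases before to 50 after the gene start, 5′ to 3′ on the strand of the gene, from RefSeq on GRCm38.p6, and capitals mark matches to the motifs searched.
H1f2 promoter, chr13:23738557-23738856, plus strand: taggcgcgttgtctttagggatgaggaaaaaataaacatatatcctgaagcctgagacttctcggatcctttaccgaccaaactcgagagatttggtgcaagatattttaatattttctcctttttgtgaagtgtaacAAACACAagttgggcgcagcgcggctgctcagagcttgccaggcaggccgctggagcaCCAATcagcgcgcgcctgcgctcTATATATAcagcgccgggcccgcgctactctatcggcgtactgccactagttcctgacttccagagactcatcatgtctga
Its capitals are AAACACA, known as the H1 box, CCAAT and TATATA, which matches at 2 overlapping positions.

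H2A, which pairs with H2B in the nucleosome, was the class with the most tested probes. Of 21 tested H2A probes 13 were positive and 8 negative, with a median of 0.35. Over all tested probes 57% were positive and the median was 0.08, and among H3 probes 9 of 10 were positive. For 9 H2A probes of 7 genes every cKO array lay above every control array, beside 8.04% of all tested probes, and for 1 H2A probe every cKO array lay below, beside 4.01%. None of the H1, H2B, H3 and H4 probes tested lay above. H2ac22 (Hist1h2an) had the smallest p, at 11.04, 11.08 and 10.92 on cKO arrays and 9.47, 10.57 and 10.35 on control arrays. The cKO arrays lay close together and control replicate 1 was lowest. Its difference was 0.88 ± 0.34, with an unadjusted p of 0.0342 and an adjusted p of 0.731. H2ac10 (Hist1h2af) followed with probe ILMN_1219574, at 11.24, 11.33 and 11.15 on cKO arrays and 9.82, 10.78 and 10.64 on control arrays, again with control replicate 1 lowest. That difference was 0.83 ± 0.32 (adjusted p = 0.733). The other H2ac10 probe was at 13.69, 13.92 and 13.89 on cKO arrays and 13.45, 13.65 and 13.37 on control arrays, without overlap, a difference of 0.35 ± 0.24. Over the alternatives run, the H2ac22 difference stayed between 0.55 and 1.10 and that of ILMN_1219574 between 0.53 and 1.01, the lowest of each being without control replicate 1. The promoters of both genes are shown because these had the smallest p among the histone genes.
H2ac22 promoter, chr13:21787199-21787498, minus strand: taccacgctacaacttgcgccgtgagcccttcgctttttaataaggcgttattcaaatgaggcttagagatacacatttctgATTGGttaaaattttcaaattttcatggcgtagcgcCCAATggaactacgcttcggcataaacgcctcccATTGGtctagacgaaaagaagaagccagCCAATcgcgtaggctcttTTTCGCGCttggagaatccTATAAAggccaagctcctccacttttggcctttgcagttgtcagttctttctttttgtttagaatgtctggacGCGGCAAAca
H2ac10 promoter, chr13:23533625-23533924, plus strand: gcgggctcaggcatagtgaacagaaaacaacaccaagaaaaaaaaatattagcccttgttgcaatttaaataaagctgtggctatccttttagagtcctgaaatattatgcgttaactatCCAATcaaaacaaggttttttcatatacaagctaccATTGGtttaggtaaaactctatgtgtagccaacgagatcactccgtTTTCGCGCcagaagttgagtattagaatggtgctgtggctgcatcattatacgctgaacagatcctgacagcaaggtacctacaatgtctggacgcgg
Both hold CCAAT or its reverse complement and TTTCGCGC, an E2F form, and that of H2ac22 also holds TATAAA and, after the start, the reverse complement of TTTGCCGC.

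Other H2A genes of the same kind had smaller differences than H2ac22, and none passed (adjusted p = 0.766 for each of the next 5 probes named). H2ac21 (Hist2h2ab) was at 10.07, 10.08 and 9.88 on cKO arrays and 9.51, 9.85 and 8.51 on control arrays, without overlap and with control replicate 3 lowest. Its difference was 0.72 ± 0.38, and 0.29 without cKO replicate 1 and control replicate 3. H2ac24 (Hist1h2ap) was at 12.16, 12.23 and 12.15 on cKO arrays and 10.88, 11.86 and 11.90 on control arrays, a difference of 0.63 ± 0.34. Its groups did not overlap, the cKO arrays were nearly equal and control replicate 1 was lowest. H2ac13 (Hist1h2ai) was at 11.20, 11.34 and 11.19 on cKO arrays and 9.96, 10.95 and 10.92 on control arrays with probe ILMN_1238276 and at 13.35, 13.37 and 13.24 on cKO arrays and 12.87, 13.22 and 12.76 on control arrays with ILMN_2745212. Those differences were 0.64 ± 0.33 and 0.37 ± 0.25, without overlap. Without control replicate 1 the difference was 0.30 for H2ac24 and 0.31 for H2ac13 ILMN_1238276. H2ac11 (Hist1h2ag) was at 6.97, 7.46 and 7.29 on cKO arrays and 6.13, 7.06 and 6.45 on control arrays, where the groups overlapped, with a difference of 0.69 ± 0.32. H2ac8 (Hist1h2ae), near the detection limit, had a difference of -0.31 ± 0.35.

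The 3 probes of H2ac18 (Hist2h2aa1) differed in sign. Probe ILMN_1228849 was at 5.95, 6.42 and 6.69 on cKO arrays and 6.90, 6.97 and 7.03 on control arrays, with every cKO array below every control array and a difference of -0.62 ± 0.28 (adjusted p = 0.766). Probe ILMN_1231053 was at 13.47, 13.30 and 13.22 on cKO arrays and 13.29, 13.18 and 12.82 on control arrays, a difference of 0.24 ± 0.26. Probe ILMN_2751948 was at 11.13, 10.87 and 10.51 on cKO arrays and 10.65, 10.59 and 10.09 on control arrays, a difference of 0.39 ± 0.30. In these last probes the groups overlapped and control replicate 3 was lowest, and without it and cKO replicate 1 the differences were 0.03 and 0.07. The difference of ILMN_1228849 was -0.38 without those arrays.

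Probes of different H2A genes had nearly the same profile over the arrays. These genes are known as a family of near-identical copies, and whether a probe measured more than one of them was not determined here, so values of single genes are uncertain. With each probe centred on its own mean, H2ac13 ILMN_1238276 and H2ac24 stayed within 0.05 log2 units of each other on every array, H2ac7 ILMN_1226839 and H2ac24 within 0.07, and H2ac10 ILMN_1219574 and H2ac22 within 0.10. Among the 40 histone probes with a range over 1 log2 unit there were 769 pairs of different genes, 212 within a class and 557 between classes. Of these, 10 pairs stayed within 0.2 on every array, and all 10 were within a class. Outside H2A they were H4c12 with H4c18 (0.07), H2bc11 with H2bc6 (0.16) and H2bc12 with H2bc7 (0.18). The 9 H2A probes with separated groups should not be read as 9 separate measurements. These pairs were picked out after their values were seen, and no test was made of them.

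**Figure D2:**
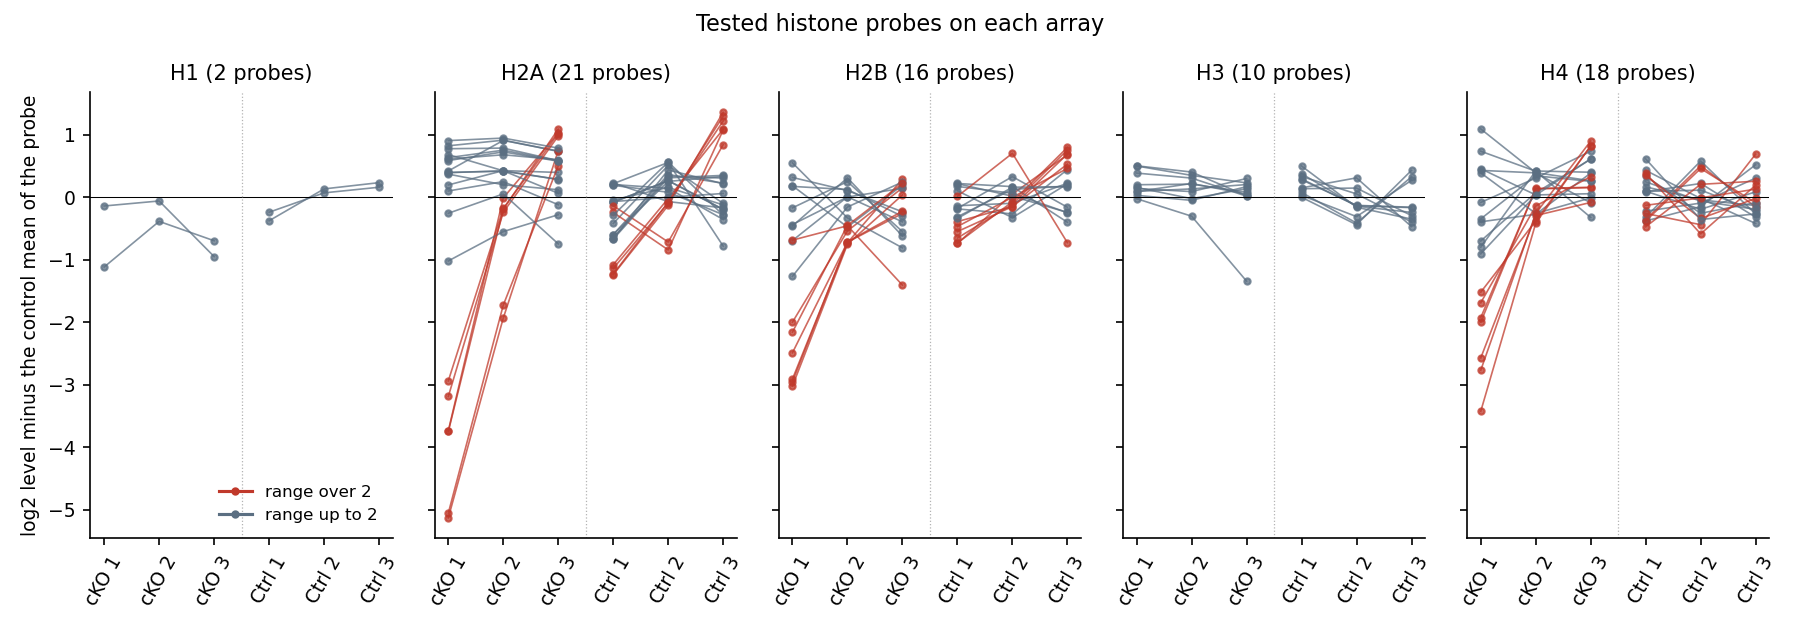
Level of each tested histone probe on each array relative to its control mean (log2 units, vertical axis), by class, with the cKO arrays left of the control arrays in each panel; thin lines join the values of 1 probe and imply no order. Red marks the 20 probes with a range over 2 log2 units, of which 19 were lowest on cKO replicate 1.

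A second set of probes varied widely between arrays of the same group. For 20 histone probes of 16 genes the range over the 6 arrays exceeded 2 log2 units, beside 19.6% of all tested probes. They were 6 of H2A, 7 of H2B and 7 of H4, and none of the tested H1 or H3 probes was among them. All 20 had negative differences, with a median of -0.88, and 19 were lowest on cKO replicate 1. Of the 4274 tested probes of the whole array with such a range, 62.2% were negative and 48.5% were lowest on cKO replicate 1, as were 22.4% of all tested probes. Over all 67 tested histone probes, 17 were both lowest on cKO replicate 1 and highest on control replicate 3, beside 8.38% of all tested probes. The range that chose these probes includes that array, and no test was made of the set. Without cKO replicate 1 the median was -0.01 with 10 of 20 positive, and without control replicate 3 as well it was 0.12 with 14 positive. The other 47 probes had a median of 0.12, 0.15 and 0.10 in those settings. The part of these arrays in the wide ranges was not tested.

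H2ac19 (Hist2h2aa2) had the widest range, at 7.03, 10.23 and 12.91 on cKO arrays and 11.92, 11.32 and 13.24 on control arrays. Its raw intensities were 136.2, 1387.5 and 7007.2 on cKO arrays and 3996.9, 2284.2 and 8498.6 on control arrays, with cKO replicate 1 far below every other array. The difference of -2.11 ± 1.34 was -0.05 without cKO replicate 1 and control replicate 3. H2ac12 (Hist1h2ah) was wide with both probes, ILMN_1246108 at 5.40, 8.96 and 10.24 on cKO arrays and 7.91, 9.02 and 10.51 on control arrays and ILMN_2730329 at 5.13, 8.86 and 9.90 on cKO arrays and 7.79, 8.85 and 9.96 on control arrays. Their differences of -0.95 ± 1.23 and -0.90 ± 1.19 were 1.13 and 1.06 without those arrays, while between arrays of the same replicate number they were -2.50, -0.07 and -0.27 for the one probe and -2.66, 0.01 and -0.06 for the other. H2ac15 (Hist1h2ak) had a difference of -0.70 ± 1.03 on all arrays and 1.04 without them.

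**Figure D3:**
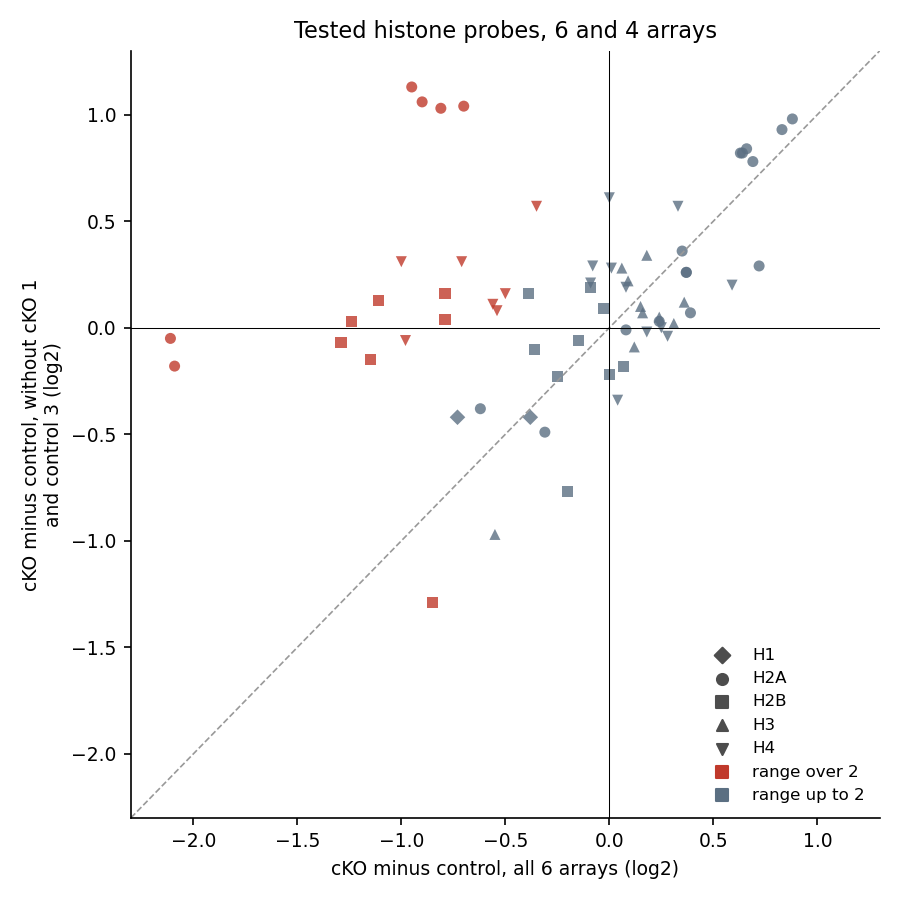
Difference between cKO and control arrays for each tested histone probe, from all 6 arrays (horizontal axis) and without cKO replicate 1 and control replicate 3 (vertical axis), in log2 units. On the dashed line both are equal; the red probes, with a range over 2, have a median of -0.88 on the horizontal axis and 0.12 on the vertical axis.

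H2B genes had mostly negative differences, 15 of 16 probes, with a median of -0.37, which was -0.17 without cKO replicate 1 and -0.06, with 7 positive, without control replicate 3 as well. H2bc9 (Hist1h2bh) was at 6.85, 9.09 and 9.58 on cKO arrays and 9.07, 9.73 and 10.60 on control arrays, a difference of -1.29 ± 0.74. H2bc15 (Hist1h2bn) was at 6.59, 8.36 and 8.82 on cKO arrays and 8.34, 9.13 and 9.76 on control arrays, a difference of -1.15 ± 0.63. In both genes cKO replicate 1 was lowest and control replicate 3 highest, and the differences were -0.07 and -0.15 without those arrays, which leaves 1 complete pair of replicate numbers. Between arrays of the same replicate number, 1 to 3 in order, the differences were -2.23, -0.64 and -1.01 for H2bc9 and -1.75, -0.77 and -0.94 for H2bc15, negative in every pair. With the replicate block the unadjusted p in limma was 0.0166 for H2bc9 and 0.00893 for H2bc15, and the adjusted p was 0.262 and 0.232. H2bc9 and H2bc15 were not alone in this. With the block 6 histone probes were lower and 4 higher at an unadjusted p under 0.05, beside 5.88% and 9.06% of all tested probes. The 4 higher were of H2ac22, H2ac10 (ILMN_1219574), H2ac11 and H4c8 (ILMN_2439060), each positive in every pair. Besides H2bc9 and H2bc15, the lower ones included probes of H1f2 (ILMN_2855315), H2bc6 (ILMN_2676243) and H2ac18 (ILMN_1228849), each negative in every pair. H2bc7 (Hist1h2bf) and H2bc11 (Hist1h2bj) had -1.24 ± 0.78 and -0.79 ± 0.56, which were 0.03 and 0.04 without cKO replicate 1 and control replicate 3. Within pairs these genes had -2.37, -0.64 and -0.71 for H2bc7 and -1.53, -0.54 and -0.31 for H2bc11. H2bc14 (Hist1h2bm) gave -0.39 ± 0.41 and H2bc8 (Hist1h2bg) -0.15 ± 0.31, the groups overlapping in each, and without both arrays they gave 0.16 and -0.06.

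H2bc6 (Hist1h2be) gave 3 unlike results with 3 probes. Probe ILMN_2676243 was at 6.08, 6.31 and 5.36 on cKO arrays and 6.78, 7.47 and 6.04 on control arrays, a difference of -0.85 ± 0.44 (unadjusted p = 0.09, adjusted p = 0.766) that was -1.29 without cKO replicate 1 and control replicate 3, -0.50 when control replicate 2 alone was left out and -0.57 when cKO replicate 3 alone was. The groups overlapped, and cKO replicate 3 was lowest. Probe ILMN_2742592 was at 9.02, 10.73 and 11.40 on cKO arrays and 10.79, 11.03 and 11.71 on control arrays, a difference of -0.79 ± 0.61 that was -0.11 without cKO replicate 1 and 0.16 without control replicate 3 as well. Probe ILMN_1252995 averaged 11.40 ± 0.26 on cKO arrays and 11.40 ± 0.22 on control arrays (SD, n = 3 each). The annotated span of H2bc6 is 37455 bases, and where in it each probe lies was not determined. H2bc4 (Hist1h2bc), with a span of 8282 bases, was at 11.63, 12.33 and 11.93 on cKO arrays and 12.01, 12.45 and 12.50 on control arrays with ILMN_1242399 and at 5.07, 5.84 and 4.91 on cKO arrays and 5.35, 5.86 and 5.37 on control arrays with ILMN_2677231. Both differences were negative, -0.36 ± 0.30 and -0.25 ± 0.34, with overlapping groups. Without cKO replicate 1 and control replicate 3 they were -0.10 and -0.23. H2bc21 (Hist2h2be), which spans 2667 bases, was at 9.50, 8.62 and 8.14 on cKO arrays and 9.17, 9.12 and 8.55 on control arrays with ILMN_1231066 and at 7.38, 7.82 and 7.96 on cKO arrays and 7.92, 7.49 and 8.03 on control arrays with ILMN_1253851. Its differences were -0.20 ± 0.40 and -0.09 ± 0.29, against -0.77 and 0.19 without both arrays, and cKO replicate 1 was the highest array for the one probe and the lowest for the other.

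H3 genes had 9 of 10 probes positive, a median of 0.16 and no tested probe with a range over 2. The median range of the tested H3 probes was 0.76 log2 units, beside 1.23 to 1.43 in the other classes and 1.19 over all tested probes. H3c10 (Hist1h3h) was at 11.70, 11.52 and 11.68 on cKO arrays and 11.62, 11.13 and 11.87 on control arrays with ILMN_2592253 and at 7.60, 7.50 and 7.12 on cKO arrays and 7.43, 7.15 and 6.70 on control arrays with ILMN_2698519. The groups overlapped in both, with differences of 0.09 ± 0.28 and 0.31 ± 0.30. Without cKO replicate 1 and control replicate 3 those were 0.22 and 0.02. H3c7 (Hist1h3f) was at 8.67, 8.59 and 8.30 on cKO arrays and 8.66, 8.14 and 8.04 on control arrays with ILMN_2748164 and, near the detection limit, at 5.86, 5.58 and 4.54 on cKO arrays and 6.02, 6.03 and 5.59 on control arrays with ILMN_2925169. Its differences were 0.24 ± 0.28 and -0.55 ± 0.39, the second being the single negative one of the class. They were 0.05 and -0.97 without both of those arrays. The other 6 probes, of H3c1, H3c13, H3c14, H3c4, H3c6 and H3c8, had differences between 0.06 and 0.36.

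H4 genes, which encode the same protein, had 8 positive and 10 negative differences, with a median of -0.04 that was 0.18, with 16 positive, without cKO replicate 1. H4c8 (Hist1h4h) was at 6.98, 6.28 and 6.15 on cKO arrays and 6.50, 5.53 and 5.62 on control arrays with ILMN_2439060, highest on cKO replicate 1, and at 6.67, 8.95 and 9.16 on cKO arrays and 8.77, 9.45 and 9.50 on control arrays with ILMN_2664129, lowest on that array. The differences were 0.59 ± 0.38 and -0.98 ± 0.65, and 0.20 and -0.06 without cKO replicate 1 and control replicate 3. H4c6 (Hist1h4f) was wide with all 3 probes, of which ILMN_1222313 was at 5.97, 7.11 and 8.31 on cKO arrays and 7.23, 7.05 and 8.18 on control arrays, a difference of -0.35 ± 0.61. Probe ILMN_1230265 was at 4.90, 7.91 and 9.15 on cKO arrays and 8.71, 7.74 and 8.52 on control arrays, a difference of -1.00 ± 0.98. Probe ILMN_2525565 was at 4.80, 7.31 and 8.47 on cKO arrays and 7.92, 7.23 and 7.55 on control arrays, a difference of -0.71 ± 0.84. On all 3 probes cKO replicate 1 was lowest and cKO replicate 3 highest, and the last 2 probes were not detected on cKO replicate 1. Without that array the differences were 0.23, 0.21 and 0.32, and without control replicate 3 as well 0.57, 0.31 and 0.31. H4c12 (Hist1h4k) was at 5.63, 7.69 and 7.71 on cKO arrays and 7.20, 8.06 and 7.40 on control arrays with ILMN_1243654 and at 5.14, 6.36 and 6.34 on cKO arrays and 5.62, 6.52 and 5.67 on control arrays with ILMN_2525570, with differences of -0.54 ± 0.59 and 0.01 ± 0.43, which were 0.08 and 0.28 without cKO replicate 1 and control replicate 3. H4c18 (Hist1h4n) was at 5.30, 7.44 and 7.46 on cKO arrays and 6.92, 7.76 and 7.21 on control arrays with ILMN_2937548, a difference of -0.56 ± 0.60 that was 0.11 without them, and averaged 6.02 ± 0.66 on cKO arrays and 6.03 ± 0.47 on control arrays (SD, n = 3 each) with ILMN_2597653. H4c2 (Hist1h4b) was at 4.96, 5.35 and 5.78 on cKO arrays and 5.14, 4.85 and 5.13 on control arrays with ILMN_1213257 and at 5.88, 5.23 and 5.48 on cKO arrays and 5.92, 5.47 and 5.07 on control arrays with ILMN_1221724, differences of 0.33 ± 0.30 and 0.04 ± 0.32 with overlapping groups. Without cKO replicate 1 and control replicate 3 the H4c2 differences were 0.57 and -0.34. That of H4c18 ILMN_2597653 was then 0.61 in place of -0.00.

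Probes of the same gene often gave unlike values. Of 18 genes with several tested probes, 7 had both signs, 5 had a gap over 1 log2 unit between their differences, and 7 had a probe with a range over 2 beside one with a smaller range. H2ac20 (Hist2h2ac) had the widest gap. Its probe ILMN_1218380 was at 13.38, 13.41 and 13.27 on cKO arrays and 12.91, 13.25 and 12.79 on control arrays, without overlap, a difference of 0.37 ± 0.25 (0.26 without cKO replicate 1 and control replicate 3). Its probe ILMN_1254276 was at 4.69, 8.02 and 10.25 on cKO arrays and 9.61, 9.03 and 10.59 on control arrays, a difference of -2.09 ± 1.26. It was not detected on cKO replicate 1, where its level was near background. Its difference was -0.61 without that array, beside 0.36 for ILMN_1218380, and -0.18 without control replicate 3 as well. H2ac7 (Hist1h2ad) was at 11.98, 12.10 and 11.93 on cKO arrays and 10.75, 11.60 and 11.68 on control arrays with ILMN_1226839, without overlap, a difference of 0.66 ± 0.32 that was 0.36 without control replicate 1. With ILMN_2795040 it was at 6.19, 9.14 and 10.36 on cKO arrays and 8.15, 9.30 and 10.68 on control arrays, a difference of -0.81 ± 1.09 that was 1.03 without cKO replicate 1 and control replicate 3. H2bc12 (Hist1h2bk) was at 10.69, 10.48 and 10.14 on cKO arrays and 10.59, 10.39 and 10.13 on control arrays with ILMN_2655785, a difference of 0.07 ± 0.28. With ILMN_2636781 it was at 6.74, 8.92 and 9.94 on cKO arrays and 9.10, 9.50 and 10.34 on control arrays, a difference of -1.11 ± 0.78 that was -0.21 without cKO replicate 1 and 0.13 without both arrays. The probe sequences were not used here, so where each probe lies in its transcript was not determined.

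**Figure D4:**
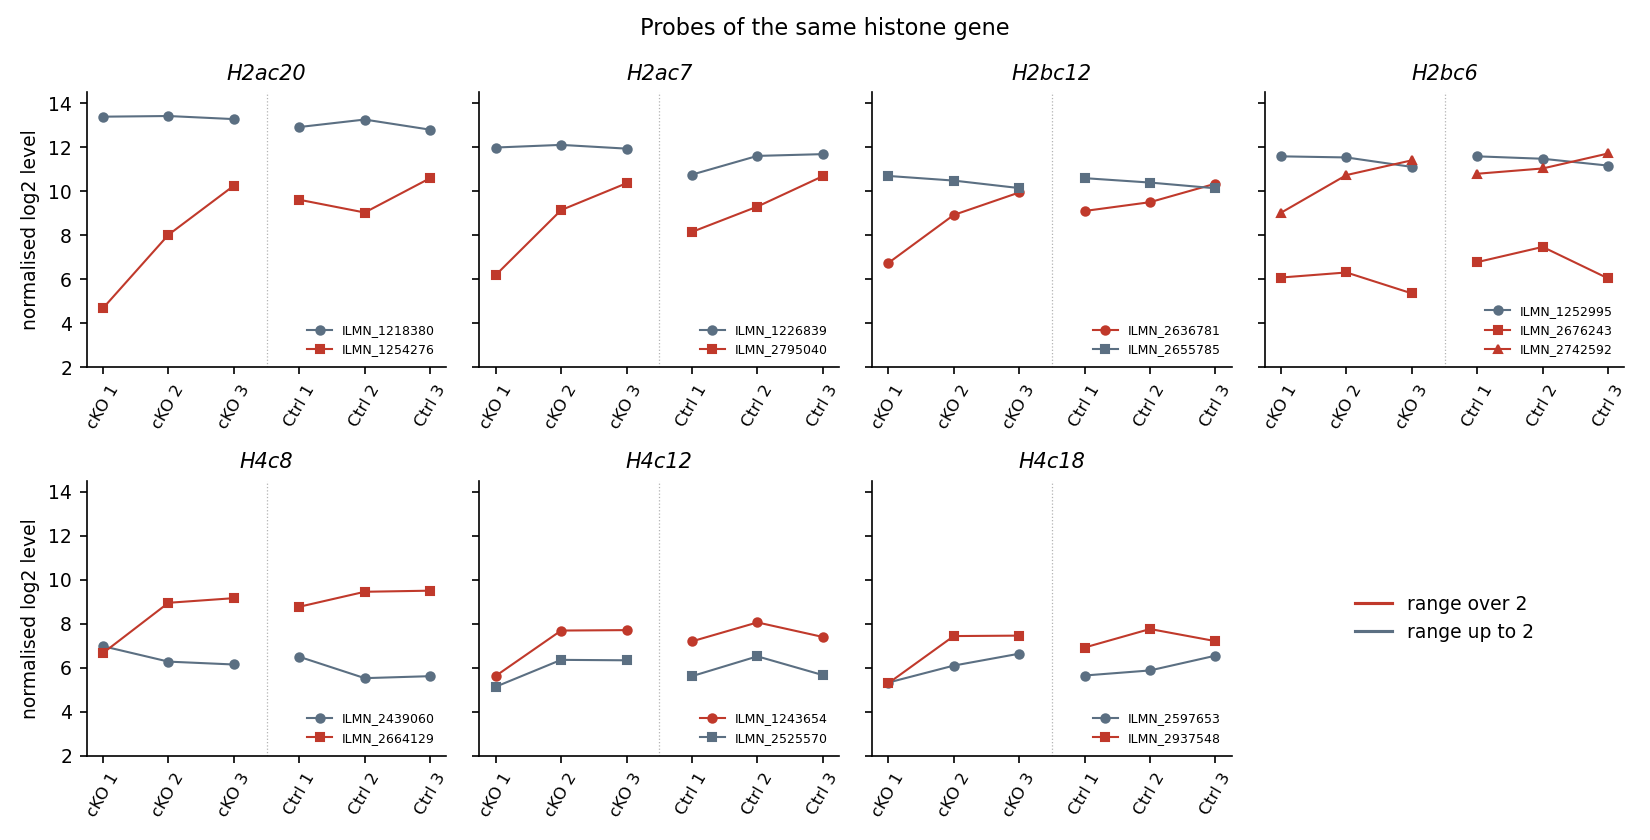
Normalised log2 level (vertical axis) on each array for the 7 genes that have a probe with a range over 2 log2 units (red) beside one with a smaller range (blue), cKO arrays left of control arrays. In H2ac20 the red probe spans 4.69 to 10.59 while the blue probe stays between 12.79 and 13.41.

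Several H2A and H2B genes start back to back, and 6 such pairs, all with tested probes, have overlapping promoter windows. Their differences are given over all 6 arrays, including the pair that stood apart. H2bc7 and H2ac7 had differences of -1.24 for H2bc7 and of 0.66 and -0.81 for H2ac7. H2bc11 and H2ac11 had -0.79 and 0.69, of opposite sign. H2bc15 and H2ac15 had -1.15 and -0.70, and H2bc8 and H2ac8 had -0.15 and -0.31. H2bc12 had -1.11 and 0.07 beside -0.95 and -0.90 for H2ac12. The signs depended on the arrays used. Without cKO replicate 1 and control replicate 3, H2bc7 had 0.03 and H2ac7 0.84 and 1.03, and H2bc11 and H2ac11 had 0.04 and 0.78, all positive. H2bc15 and H2ac15 then had opposite signs, at -0.15 and 1.04. The windows of H2ac7 and H2bc7 are shown because they share 273 bases, on opposite strands, while probes of the pair had both signs over all 6 arrays.
H2ac7 promoter, chr13:23574131-23574430, plus strand: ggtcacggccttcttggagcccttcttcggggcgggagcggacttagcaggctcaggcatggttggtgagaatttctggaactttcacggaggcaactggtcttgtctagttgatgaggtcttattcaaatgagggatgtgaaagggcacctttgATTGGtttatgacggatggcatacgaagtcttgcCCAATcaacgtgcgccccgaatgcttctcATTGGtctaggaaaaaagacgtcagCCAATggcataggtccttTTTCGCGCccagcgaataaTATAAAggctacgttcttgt
H2bc7 promoter, chr13:23574158-23574457, minus strand: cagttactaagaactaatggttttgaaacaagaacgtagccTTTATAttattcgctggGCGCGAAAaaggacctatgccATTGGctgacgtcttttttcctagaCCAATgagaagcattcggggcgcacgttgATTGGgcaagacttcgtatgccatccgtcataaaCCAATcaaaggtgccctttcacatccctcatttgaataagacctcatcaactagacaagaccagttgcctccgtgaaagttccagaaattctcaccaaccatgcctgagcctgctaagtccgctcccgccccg
Both hold CCAAT, an E2F form and TATAAA on one strand or the other, and because the windows overlap these are the same letters read from either side. In the H2ac7 window the matches to TATAAA and the E2F form lie after the annotated start, and in the H2bc7 window they lie before it.

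Promoter windows were found for 51 of the 56 genes, 52 windows in all, and were searched on both strands. CCAAT was in 44 of 52, beside 37.4% of 32851 promoters of the same length, and in H4 windows it was in 3 of 11. TATAAA or TATATA was in 36, beside 17.1%. ATTTGCAT, the octamer named after H2B promoters, was in 13, of which 7 were of H2B and 6 of H2A, beside 1.7%. AAACACA was in 9, among them 5 of the 6 H1 windows, beside 7.2%. The E2F forms TTTCCCGC, TTTGGCGC, TTTCGCGC and TTTGCCGC were in 9, of which 5 were of H2A, 3 of H2B and 1 of H4, beside 2.3%. Windows of back-to-back genes share letters and so are not separate counts, and a match is a description of the letters alone.

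Of the testis-specific histones within the rule, which germ cells make before the switch to protamines, H1f6, H2ac1 and H2bc1 were low or undetected. H1f6 (Hist1h1t) was detected on 0 arrays. H2ac1 (Hist1h2aa) was at 5.92, 6.07 and 5.70 on cKO arrays and 6.05, 5.75 and 5.65 on control arrays, a difference of 0.08 ± 0.26. H2bc1 (Hist1h2ba), which shares its promoter region with H2ac1, was detected on 3 arrays, at 5.50, 4.84 and 5.51 on cKO arrays and 5.13, 5.05 and 5.76 on control arrays, a difference of -0.03 ± 0.33. The groups overlapped in both. The H2bc1 window is shown because it holds the octamer.
H2bc1 promoter, chr13:23934107-23934406, minus strand: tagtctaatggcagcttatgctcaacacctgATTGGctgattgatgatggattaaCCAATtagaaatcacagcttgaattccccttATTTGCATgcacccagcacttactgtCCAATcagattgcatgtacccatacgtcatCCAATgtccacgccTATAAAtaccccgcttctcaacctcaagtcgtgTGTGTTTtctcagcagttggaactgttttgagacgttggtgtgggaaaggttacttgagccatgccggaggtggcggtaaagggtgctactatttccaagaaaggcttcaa
Its capitals are CCAAT, ATTTGCAT and TATAAA, and TGTGTTT, the reverse complement of AAACACA. Of 8 tested testis histones and sperm basic proteins, 5 had positive differences, with a median of 0.16, beside 61.3% positive and a median of 0.12 over all genes. Among them H1f7, a linker histone of spermatids, was at 12.31, 12.24 and 12.61 on cKO arrays and 12.36, 11.31 and 11.12 on control arrays (0.79 ± 0.38), and Prm3 at 11.92, 11.73 and 11.36 on cKO arrays and 11.69, 10.82 and 10.20 on control arrays (0.77 ± 0.41).

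Genes that process histone mRNA did not pass. Of 23 on the array 19 were tested, with 16 positive differences, a median of 0.18, and 0 with an unadjusted p under 0.05 in limma. Over all genes by their brightest probe 61.3% were positive, the median was 0.12 and, at that p, 5.96% were higher and 1.81% lower. Slbp, which binds the stem-loop, was not tested because it was detected on too few arrays, and neither were Lsm11, Casp8ap2 and Tut4. Cpsf3, the nuclease that cuts histone pre-mRNA, was at 7.31, 7.47 and 7.42 on cKO arrays and 6.96, 7.42 and 6.53 on control arrays, a difference of 0.43 ± 0.30. Srrt, Upf1, Zfp473 and Lsm10 had 0.63 ± 0.50, 0.58 ± 0.48, 0.59 ± 0.52 and 0.27 ± 0.24. Cpsf3, Srrt, Upf1, Zfp473 and Lsm10 were each lowest on control replicate 3.

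Of 24 genes for histone chaperones and assembly, 21 were tested, with 13 positive differences, a median of 0.17 and, by unadjusted p under 0.05, 3 genes higher and 1 lower, beside 61.3% positive, 5.96% higher and 1.81% lower over all genes. Rbbp4, a histone-binding subunit of several chromatin complexes, was at 7.41, 8.01 and 7.23 on cKO arrays and 8.90, 8.60 and 8.77 on control arrays, without overlap, a difference of -1.20 ± 0.29 (adjusted p = 0.336). Hat1, which acetylates new H4, was at 12.59, 12.25 and 12.24 on cKO arrays and 11.77, 11.44 and 11.69 on control arrays, without overlap, a difference of 0.73 ± 0.25. Chaf1b, a subunit of the assembly factor CAF-1, was at 10.81, 10.97 and 10.58 on cKO arrays and 10.01, 10.31 and 9.75 on control arrays, also without overlap, a difference of 0.77 ± 0.27. Tonsl and Anp32e had 1.34 ± 0.56 and -0.78 ± 0.35. Each of these 5 had an adjusted p above the threshold.

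Of 10 replication-independent variant genes 9 were tested, and 1 passed, beside 0.195% of 12277 genes called higher by their brightest probe. Differences were positive for 6 of the 9, and 2 were higher at an unadjusted p under 0.05 in limma. Over all genes 61.3% were positive and 5.96% were higher at that p. Cenpa, the H3 variant of centromeres, was at 10.96, 10.66 and 10.47 on cKO arrays and 7.98, 8.13 and 7.95 on control arrays. Every cKO array was above every control array, and Cenpa rose by 2.68 ± 0.26 (adjusted p = 0.0272). Its call, like that of Cdt1, was lost with the replicate block and without any one control array. H2ax, the variant phosphorylated at DNA breaks, was at 10.83, 10.85 and 11.12 on cKO arrays and 10.66, 10.04 and 9.24 on control arrays, without overlap, a difference of 0.95 ± 0.39 (adjusted p = 0.762). H2az1, a variant found at promoters, was at 7.54, 12.34 and 12.87 on cKO arrays and 11.73, 11.93 and 12.48 on control arrays, with cKO replicate 1 far below the rest and a difference of -1.13 ± 1.28. H3f3a, H1f10 and H2az2 had -0.76 ± 0.54, 0.66 ± 0.62 and 0.36 ± 0.34. The less bright tested probe of H3f3a had -1.69 ± 1.33, and that of H1f10 had the other sign, -0.47 ± 0.78.

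Markers of other cell types also differed in level between arrays. Of 10 tested markers of spermatogonia (12 on the array), dividing germ cells that also make these histones, 9 had positive differences, beside 61.3% of all genes. The mean level of these markers relative to the control mean was 0.89, 0.40 and 0.53 on cKO arrays and 0.10, 0.11 and -0.20 on control arrays. The spermatocyte markers, 7 of 10 tested, were at 0.59, 0.25 and 0.47 on cKO arrays and 0.42, -0.41 and -0.01 on control arrays. The Leydig list, 4 of 6 tested, was at 2.13, 0.78 and 1.02 on cKO arrays and -0.30, -0.02 and 0.33 on control arrays. Peritubular (5 of 7), endothelial (7 of 8) and leukocyte (6 of 10) lists lay between 0.37 and 1.43 on cKO arrays and between -0.36 and 0.24 on control arrays. None of the marker genes tested passed, and the part of these cells in the histone and S phase values was not tested.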

How the data were processed

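The 6 arrays comprised 3 of Rb cKO and 3 of Control Sertoli cells. BeadStudio is named without a version in the submitters' processing notes. Per the file headers, the deposited scanner tables hold an intensity per probe, averaged over beads, a bead standard deviation on the same signal scale, a bead count and a detection score. The deposited series table holds log2 values, which match the log2 intensity less the array's upper quartile, with the median of every probe set to 0. Probe numbers were joined to probe IDs through this relation for all 45281 probes, with a largest distance of 0.000395. In the platform annotation 34885 probes have 1 symbol, 18 have several and 10378 have none. No genome build is given for the arrays in the sources used here.

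Intensities were corrected and quantile-normalised with neqc (offset 16) in limma 3.58.1 under R 4.3.3. Probes with a detection score over 0.95 on at least 3 of 6 arrays were tested with lmFit and eBayes, two-sided, by group, with Benjamini-Hochberg adjustment over 21805 probes and a threshold of 0.05. Lists use the brightest tested probe of a gene. Same-numbered arrays deviated together, with correlations of 0.262, 0.410 and 0.473 for replicates 1, 2 and 3. These were not set against arrays of different numbers, and the labels do not say what a number marks. The main fit, with its 31 calls, used no pairing, and the replicate block was an alternative. Named were the 12 histone probes with the smallest p, testis histones, probes of genes with several tested probes, and up to 5 genes a list by p. Profile pairs and the range limit of 2 were added outside that rule. Members and lists were chosen with earlier results of these data known. Alternatives covered normalization, background, the filter, probes per gene, the block and arrays left out. The procedure was tested on simulated data with independent noise on each array, so that test does not cover deviations that arrays share.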

Additional observations from a re-analysis of the deposited data

How the results depend on the processing

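No histone probe passed under any alternative run, and the count of probes called lower was 0 in each. The count called higher over the whole array, 31, was 12 with normexp at an offset of 50, 13 on uncorrected intensities, 1 when all probes were tested whatever their detection, and 6 without cKO replicate 1 and control replicate 3. It was 43 with median scaling, 42 with the brightest tested probe of each gene, 27 with detection on all 6 arrays and 26 on the deposited log2 values. It ran from 0 to 15 with 1 array left out, and was 0 without any one of the 3 control arrays, 8 without cKO replicate 1, 2 without cKO replicate 2 and 15 without cKO replicate 3. With the replicate block it was 0 in limma, and an unadjusted p under 0.05 was reached by 1975 probes that were higher and 1282 that were lower. The histone median of -0.03 ran from -0.09 to 0.15 with 1 array left out, the highest being without cKO replicate 1. Of 673 values for the 47 histone probes that the naming rule above chose, 0 passed and 49 changed sign, in 20 probes. Histone probes named outside that rule were not counted. Among these, H2ac15, H2bc7 and H2bc11 also changed sign without cKO replicate 1 and control replicate 3. The causes were not tested. Levels near the detection limit, between 4.8175 and 5.3528 on these arrays, limit the dimmest probes, and groups of 3 arrays limit the rest.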

Other observations

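Histone-named probes outside the rule included the short H2A and H2B variants of spermatids. H2al2a was at 11.17, 10.97 and 11.01 on cKO arrays and 11.06, 9.98 and 10.19 on control arrays, a difference of 0.64 ± 0.34. H2bl1 was at 13.15, 12.91 and 13.17 on cKO arrays and 12.91, 12.10 and 12.29 on control arrays, a difference of 0.64 ± 0.30. H2al3 was at 10.77, 10.39 and 10.61 on cKO arrays and 10.66, 9.64 and 9.96 on control arrays, a difference of 0.50 ± 0.33. In these genes control replicate 2 was lowest and control replicate 1 was at or near the cKO levels, so the groups overlapped. H2al1n and H2ap had differences of 0.48 ± 0.35 and 0.53 ± 0.33, and none of these probes passed in limma (adjusted p = 0.766 for each). These genes were chosen after their values were seen.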
